A study of Mus musculus with 6 samples.

Results

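Aerocytes are one of the capillary endothelial cell types of the mouse lung. They were chosen here by measured values, with a gate on UMI counts (unique molecular identifiers, 1 per captured RNA molecule). A barcode entered only if it had 500 or more detected genes and 1000 or more UMIs, with no more than 15% of these from mitochondrial transcripts. It also needed at least 1 UMI of Cdh5, which encodes VE-cadherin, at least 2 of Car4 and at least 2 of Ednrb. It could hold no UMI of Ptprc (the leukocyte antigen CD45), Epcam (epithelium) or Pdgfra (fibroblasts). The gate took 2844 of 88616 barcodes within the quality limits, out of 94392 deposited, and of 26846 endothelial barcodes, which meet the same rule without Car4 and Ednrb. The 3 control libraries gave 412, 568 and 614 aerocytes and the 3 p16-DTR libraries gave 354, 563 and 333.

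Lungs of male C57BL/6 mice aged 21 months were dissociated and their sorted cells sequenced in droplets, with the 3' GEM-X kit of 10x Genomics and 1 library per mouse. The p16-DTR mice carried p16-CreERT2 and R26-LSL-DTR, so that a tamoxifen-activated Cre driven from the p16 (Cdkn2a) locus can switch on a diphtheria toxin receptor. The control mice carried p16-CreERT2 alone. Both groups received tamoxifen for 5 days, an interval of 2 weeks, diphtheria toxin for 5 days and 2 weeks of recovery, so that the controls also had Cre, tamoxifen and toxin. Each library mixed 20000 sorted CD45- cells with 9000 CD45+ cells, so shares of cells are shares within a sort. Each label names a mouse and a sample number, taken here as separate mice. P-values of the comparisons between groups measure the spread between 3 mice per group. Those of the Cdkn2a contrast and of the interactions measure the spread of within-library differences over the 6 libraries.

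As background, lung capillaries hold a pair of endothelial types. Aerocytes are large, thin cells that lie against the alveolar epithelium where gas is exchanged, and general capillary cells are thought to act as progenitors and to regulate vessel tone. Aerocytes carry carbonic anhydrase 4 (Car4) on their surface and the endothelin receptor B (Ednrb), and they respond to VEGF from alveolar type 1 cells through the receptor Kdr. They secrete apelin (Apln), whose receptor Aplnr is found on general capillary cells. Cdkn2a encodes 2 proteins, the CDK4 and CDK6 inhibitor p16 (Ink4a) and the MDM2 inhibitor Arf. Cells in senescence, a lasting arrest of division, often express it.

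Cdkn2a lies on chromosome 4 at 89274471-89294653, minus strand, in GRCm38, between the lincRNA gene Gm12606 (89235699-89273403, minus strand) and Cdkn2b (89306299-89311039, minus strand), which encodes the related inhibitor p15. The gap between Gm12606 and Cdkn2a is 1067 bases and that between Cdkn2a and Cdkn2b is 11645 bases. The 2 Cdkn2a transcripts start at different promoters and share their last exons, so 3' counts give their sum. The 250 bases before each start, from RefSeq (GRCm38.p6), are shown because the comparisons below turn on this locus. They run 5′ to 3′ on the minus strand, and capitals mark GC boxes (GGGCGG or its complement).
Cdkn2a, Arf start, chr4:89294620-89294869: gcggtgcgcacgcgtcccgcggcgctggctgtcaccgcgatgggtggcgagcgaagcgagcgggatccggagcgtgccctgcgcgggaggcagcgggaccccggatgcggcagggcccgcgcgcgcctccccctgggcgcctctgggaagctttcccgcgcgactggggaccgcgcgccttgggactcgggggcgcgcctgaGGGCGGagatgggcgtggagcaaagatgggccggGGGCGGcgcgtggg
Cdkn2a, Ink4a start, chr4:89282193-89282442: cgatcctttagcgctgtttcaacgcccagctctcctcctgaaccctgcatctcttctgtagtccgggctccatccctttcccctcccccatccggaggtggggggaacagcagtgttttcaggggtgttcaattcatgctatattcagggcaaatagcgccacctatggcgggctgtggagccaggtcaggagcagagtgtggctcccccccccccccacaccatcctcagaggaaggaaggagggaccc
Cdkn2b, chr4:89311033-89311282: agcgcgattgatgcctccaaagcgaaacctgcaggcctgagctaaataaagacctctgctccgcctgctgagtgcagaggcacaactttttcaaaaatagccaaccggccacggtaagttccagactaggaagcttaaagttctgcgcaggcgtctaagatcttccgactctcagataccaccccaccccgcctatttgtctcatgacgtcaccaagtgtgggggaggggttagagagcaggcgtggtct
The Arf window held 2 GC boxes and 78.4% G+C, and the Ink4a and Cdkn2b windows held 0 GC boxes, with 60% and 53.6% G+C. Over 32851 RefSeq promoter windows of the same length, 32.7% held a GC box and the median G+C content was 52.4%. A TATA box (TATAAA, in 12.4% of windows), an E-box (CACGTG, in 6.02%) and a T-box motif (GGTGTGA, in 3.33%), each searched on both strands, had 0 matches in the 3 windows. Tbx2, an aerocyte marker, is a T-box factor, and the absence of these letters says nothing about its binding.

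Depth was alike between the groups. Median UMIs per aerocyte were 20931.5, 22098.5 and 21174 in control and 20687, 22660 and 21559 in p16-DTR libraries, and median mitochondrial shares ran from 0.903 to 1.22%. Summed aerocyte UMIs ran from 7283051 to 13065870 per library. Of 2841 distinct aerocyte barcode sequences 3 occurred in more than 1 library (0.106%). Over all barcodes it was 1055 of 93313 (1.13%). Such a share grows with the number of barcodes, so these values are not comparable. No doublet caller was run, and 14.7 to 20.1% of aerocytes per library held a UMI of Kit or Aplnr, which mark general capillary cells. Lymphatic markers reached 10 UMIs in 1 to 11 aerocytes per library, and 26 aerocytes of control replicate 3 reached 10 UMIs of platelet markers. Together, 31.3 to 38.7% of aerocytes per library held 10 or more UMIs of a general capillary, venous, lymphatic, pericyte, fibroblast or platelet marker list. Counts of calls below are also given without these barcodes, except for the comparison of the capillary classes, where that fit was not run. Lists not used for this step also reached 10 UMIs. Per library these were 28.8 to 40.3% of aerocytes for arterial, 7.0 to 11.3% for leukocyte and 72.6 to 82.7% for alveolar type 1 markers. Single genes made up most UMIs of the arterial and alveolar type 1 lists. The alveolar type 1 list had 892 to 1053 UMIs per 1e6. Hopx alone had a mean of 995 in Cdkn2a-detected and 917 in matched undetected aerocytes, and Ager had 5.80 in all aerocytes. The arterial list had 445 to 588 per 1e6, and Efnb2 alone had 309 to 387. The general capillary list alone reached 10 UMIs in 28.7 to 38.4% of aerocytes per library. It includes Sema3c, which was found in 54.9 to 67.3% of aerocytes after each cell was thinned to 5000 UMIs. The mean of Sema3c was 2.54 to 3.24 UMIs per thinned cell. Leaving out barcodes by this list therefore also removes aerocytes by their Sema3c level.

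The markers that the gate did not use were high in the chosen cells. Fibin, a secreted protein gene, had 826 ± 92.8 CPM (UMIs of the gene over all UMIs of the class in a library, as counts per 1e6) in aerocytes and 1.05 ± 0.206 in general capillary cells (SD, n = 6 libraries), and was found in 84.7 to 91.8% of aerocytes per library. Tbx2 stood at 520 ± 22.4 against 7.56 ± 1.44 CPM and Apln at 299 ± 31.1 against 4.57 ± 2.54 (SD, n = 6). The groups of values did not overlap for any of the 3 genes, as the plot of levels by library shows. General capillary cells were 9778 endothelial barcodes with at least 2 Gpihbp1 UMIs, a Kit or Aplnr UMI, at most 1 Car4 UMI and no Ednrb UMI. Car4 and Ednrb themselves, which chose the cells, stood at 2786 ± 131 and 1880 ± 116 CPM (SD, n = 6). Per library, 12 to 18 endothelial barcodes fell just outside the gate with 1 Car4 UMI and enough Ednrb, and 31 to 59 with 1 Ednrb UMI and enough Car4. Just inside it, 7 to 15 aerocytes had exactly 2 Car4 UMIs and 12 to 29 exactly 2 Ednrb UMIs.

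**Figure D1:**
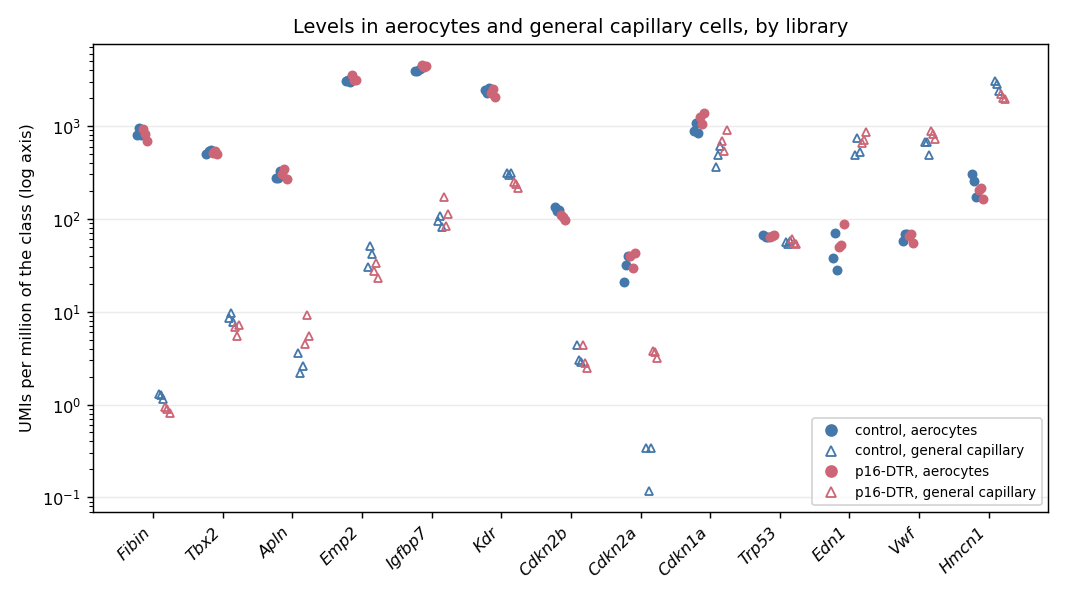
CPM (log axis) of 13 genes in aerocytes (filled circles) and general capillary cells (open triangles), 1 point per library, control in blue and p16-DTR in red. Fibin, Tbx2, Apln, Emp2, Igfbp7, Kdr and Cdkn2b were above the general capillary level in every library, Edn1, Vwf and Hmcn1 were below it, and Trp53 was close to it at 64.8 against 56.0.

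Other genes than the markers also differed widely in level between the capillary classes. As the gates chose both classes, these levels are a description without a test. Among genes of at least 50 CPM in either class, the largest ratios belonged to Slc5a12, a sodium-coupled monocarboxylate transporter (112 against 0.0791 CPM), Dpysl5, a neuronal guidance phosphoprotein (161 against 0.181), and Fibin. The sulfotransferases Chst9 (85.9 against 0.116) and Chst1 (239 against 0.711) followed, with the membrane glycoprotein Gpnmb (78.6 against 0.242) and the transmembrane protein Tmeff2 (997 against 3.18). Xpnpep2, Pde1a, Ncam1, Ms4a8a and Fndc1 completed the list of 12, with ratios from 201 to 267. Kdr, the main VEGF receptor, stood at 2345 ± 184 against 271 ± 41.8, Emp2 at 3163 ± 218 against 34.4 ± 10.1 and Igfbp7 at 4215 ± 244 against 109 ± 33.7 CPM (SD, n = 6).
Genes lower in aerocytes reached smaller ratios. Lama1, a laminin chain, was 17.3-fold higher in general capillary cells (59.1 against 3.42 CPM) and Edn1, which encodes endothelin-1, a ligand of Ednrb, was 12.2-fold higher (663 against 54.3). Vegfc, Glp1r, Vwf, Hmcn1, Mctp1, Pcsk5, Sntb1, Myrip, Ntrk2 and Tmem252 were 10.4- to 12.2-fold higher. The level of Ednrb itself was set by the gates of both classes.

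Both INK4 genes of the locus were higher in aerocytes than in general capillary cells, the one other endothelial class measured here. Cdkn2b stood at 115 ± 13.7 CPM in aerocytes and 3.32 ± 0.849 in general capillary cells (SD, n = 6), a 34.6-fold ratio, and was found in 69.4 to 77.1% of aerocytes per library. Cdkn2a stood at 34.0 ± 8.16 CPM in aerocytes and 1.91 ± 1.81 in general capillary cells (SD, n = 6). The latter mean joins 2 unlike groups, at 0.265 ± 0.127 in control and 3.55 ± 0.305 in p16-DTR general capillary cells (SD, n = 3). Cdkn1a (p21), a target of p53, was at 1077 ± 205 against 596 ± 186, and Trp53 at 64.8 ± 1.46 against 56.0 ± 2.47 CPM (SD, n = 6).

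Cells of the class were uneven in a small set of genes. After thinning to 5000 UMIs, the Fano factor (variance over mean of UMIs per cell) was computed for 7831 genes with a mean of at least 0.05 UMIs in every library, and its median was 1.12. Ccl21a, a chemokine of lymphatic endothelium and one of several near-identical gene copies, had the highest mean rank, with Fano factors of 95.9 to 145 and UMIs in 1.47 to 4.38% of cells. Mmrn1, another lymphatic gene, ranged from 14.8 to 34.9 and was found in 0.31 to 1.88% of cells. The fatty acid carrier Fabp4 had Fano factors of 38.9 to 101 and was found in 0.298 to 4.64% of cells. In contrast, the Fano factor was 1.34 to 1.75 for Tbx2, 1.81 to 2.18 for Apln and 3.17 to 3.79 for Fibin. Sema3c (9.77 to 19.9), Ptprb (12.6 to 15.9), Hmcn1 (6.73 to 15.5) and Plcb1 (7.8 to 14) were also uneven. Hmcn1 is among the genes high in general capillary cells, and Gpihbp1 had Fano factors of 3.74 to 6.62. Cdkn2a had Fano factors of 2.2 to 2.87 and Cdkn2b of 1.18 to 1.52. Gdf15, a secreted stress cytokine, reached 30.3 in 1 library against a median of 4.8.

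The first comparison between groups was the share of aerocytes. They made up 10.9, 12.7 and 13.1% of endothelial barcodes in control and 8.04, 12.2 and 6.79% in p16-DTR libraries. The means were 12.3 ± 1.16% and 9.0 ± 2.82% (SD, n = 3 per group), and the groups overlapped, since p16-DTR replicate 2 lay above control replicate 1. An exact two-sided permutation test gave p = 0.2, where 3 against 3 libraries cannot go below 0.1. With the gate applied after thinning to 5000 UMIs the shares were 12.02 ± 1.38% and 8.72 ± 2.49% (exact permutation p = 0.2). The difference of the means was -3.25 points, and it did not pass the test.

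**Figure D2:**
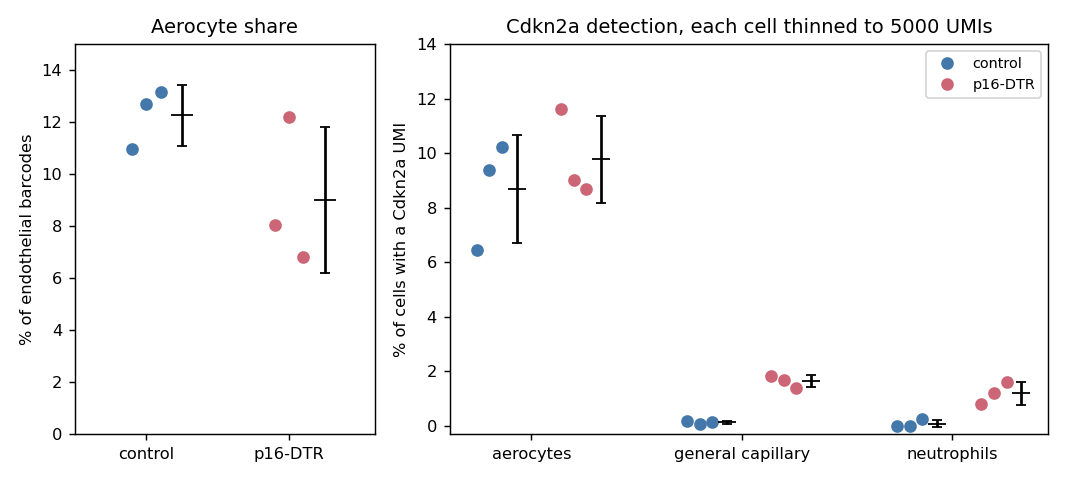
Left: aerocytes as % of endothelial barcodes, 1 point per library, with the mean and SD in black. Right: % of cells with a Cdkn2a UMI after thinning to 5000 UMIs in aerocytes, general capillary cells and neutrophils; the groups overlap in aerocytes (6.44 to 10.2% and 8.67 to 11.6%) and are apart in the other classes.

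Cdkn2a was found in aerocytes of both groups. At 5000 UMIs per cell it was found in 6.44, 9.38 and 10.2% of control aerocytes and in 11.6, 9.02 and 8.67% of p16-DTR aerocytes. The means were 8.68 ± 1.99% and 9.77 ± 1.6% (SD, n = 3 per group, exact two-sided permutation p = 0.6), and the groups overlapped. The lowest library, control replicate 1, had 25 of 388 cells with a 95% Wilson interval of 4.4 to 9.34%, and the highest, p16-DTR replicate 1, had 39 of 336 with 8.61 to 15.5%. These intervals cover counting error only. Thinning left out 66 of 1594 control and 59 of 1250 p16-DTR aerocytes. Without thinning the shares were 13.6, 19.0 and 17.4% against 22.6, 18.7 and 19.2% (exact permutation p = 0.2). Pooled over the libraries of a group, the share was higher in deeper cells: in control it was 10.1% of cells under 10000 UMIs and 20.8% of cells with 30000 or more, and in p16-DTR 12.6% and 24.9%. It did not rise at each step in every library, and control replicate 1 had 7.14, 14.8, 14.7 and 10.5% from the shallowest to the deepest of 4 bins. Detected cells held from 1 to many molecules, with 1 UMI in 105 and 5 or more in 91 of 1594 control aerocytes. In p16-DTR, 117 of 1250 held 1 UMI and 69 held 5 or more.

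In general capillary cells and in neutrophils, measured here as a class of another lineage, detection was low in control and higher in p16-DTR libraries. At 5000 UMIs it was 0.174, 0.0647 and 0.135% of control general capillary cells and 1.81, 1.69 and 1.40% of those from p16-DTR mice (exact permutation p = 0.1, the smallest possible). Neutrophils had 0 of 836, 0 of 430 and 1 of 415 cells in control, where 0 counts allow up to 0.359% and 0.698% (3 counts of the total), and 0.779, 1.19 and 1.62% in p16-DTR (exact permutation p = 0.1). Median UMIs were 14515 to 15771.5 in general capillary cells and 9132 to 11623 in neutrophils. In every control library the aerocyte share was above those of general capillary cells and neutrophils. Of neutrophils, 1.18, 1.34 and 1.84% held 2 or more Cdkn2a UMIs in p16-DTR and 0, 0 and 0.213% in control, without thinning. Whether these UMIs are free RNA or the cells' own, and their part in the aerocyte share, was not tested.

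Summed over all aerocytes of a library, Cdkn2a stood at 21.0, 31.6 and 39.6 CPM in control aerocytes and at 39.3, 29.4 and 42.8 in p16-DTR aerocytes, and the groups overlapped. The log2 difference was 0.27 ± 0.21 (SE, edgeR quasi-likelihood test, adjusted p = 0.59). Cdkn2b was at 134, 120 and 124 CPM in control and 110, 106 and 95.8 in p16-DTR aerocytes, without overlap, with a log2 difference of -0.24 ± 0.07 that did not pass (adjusted p = 0.15). Cdkn1a was at 888, 1070 and 836 against 1241, 1052 and 1376 CPM (log2 difference 0.43 ± 0.12, adjusted p = 0.16), and Trp53 was at 64.7 ± 1.38 against 65.0 ± 1.83 (SD, n = 3, adjusted p = 0.75).

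Across all genes, few passed the test between the groups, though 15.2% had an unadjusted p under 0.05. Of 12550 genes tested with edgeR on UMIs summed per library, 8 passed an adjusted p of 0.05 (0.0637%), 5 higher and 3 lower in p16-DTR aerocytes. The groups did not overlap for any of the 8. This is a description and no further test, since the share of all genes without overlap is not given here. With 3 against 3 libraries, no overlap reaches an exact permutation p of 0.1 at best. Col4a2, a type IV collagen chain of the basement membrane, was higher at 462, 483 and 528 CPM against 320, 342 and 350 in control. Its log2 difference was 0.58 ± 0.07 (SE, adjusted p = 0.038). Pdpk1, the kinase PDK1 that activates AKT, was higher at 116, 130 and 120 against 86.8, 80.4 and 84.4 CPM (log2 difference 0.58 ± 0.06, adjusted p = 0.035). Mpp7, a scaffold protein of cell junctions, was higher at 33.6, 38.5 and 36.8 against 23.9, 21.4 and 24.3 CPM (log2 difference 0.69 ± 0.08, adjusted p = 0.04). Ccnd3, cyclin D3, a partner of the kinases that p16 inhibits, was higher at 215, 215 and 215 against 140, 161 and 159 CPM (log2 difference 0.52 ± 0.07, adjusted p = 0.041). In general capillary cells Ccnd3 was also higher, at 415, 362 and 434 against 150, 254 and 262 CPM.
The tyrosine phosphatase Ptpn4 was lower at 375, 387 and 321 CPM against 592, 591 and 550 (log2 difference -0.64 ± 0.08, adjusted p = 0.04). Prkca, protein kinase C alpha, was lower at 175, 180 and 169 against 238, 231 and 247 CPM (log2 difference -0.41 ± 0.05, adjusted p = 0.041). The predicted genes Gm14005 (higher) and Gm20532 (lower), named after their values were seen, made up the 8. A further 26 genes lay between adjusted p 0.05 and 0.06, 15 of them higher, among them Col4a1, the partner chain of Col4a2 (699 ± 58.0 against 491 ± 36.3 CPM, SD, n = 3, adjusted p = 0.052).
The count moved with single libraries: it was 0 without control replicate 1 (1430 genes at an unadjusted p under 0.05), 0 without p16-DTR replicate 3 (1597) and 1 without control replicate 3, a gene that was not among the 8. It was 38 without control replicate 2, and 10 and 9 without p16-DTR replicates 1 and 2. In these 6 fits all 8 genes kept their sign, 0 were smaller by over 1.5 times, and the median log2 difference was 0.983 to 1.03 of that with all libraries. The count was 286 by DESeq2, which gave no adjusted p for 1708 genes. Without the barcodes that held 10 or more UMIs of other markers, an alternative added after the data were seen, 99 of 11256 genes passed (0.88%), 50 higher, 7 of the 8 among them. The other one was Prkca, at -0.27 (adjusted p = 0.080).

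**Figure D3:**
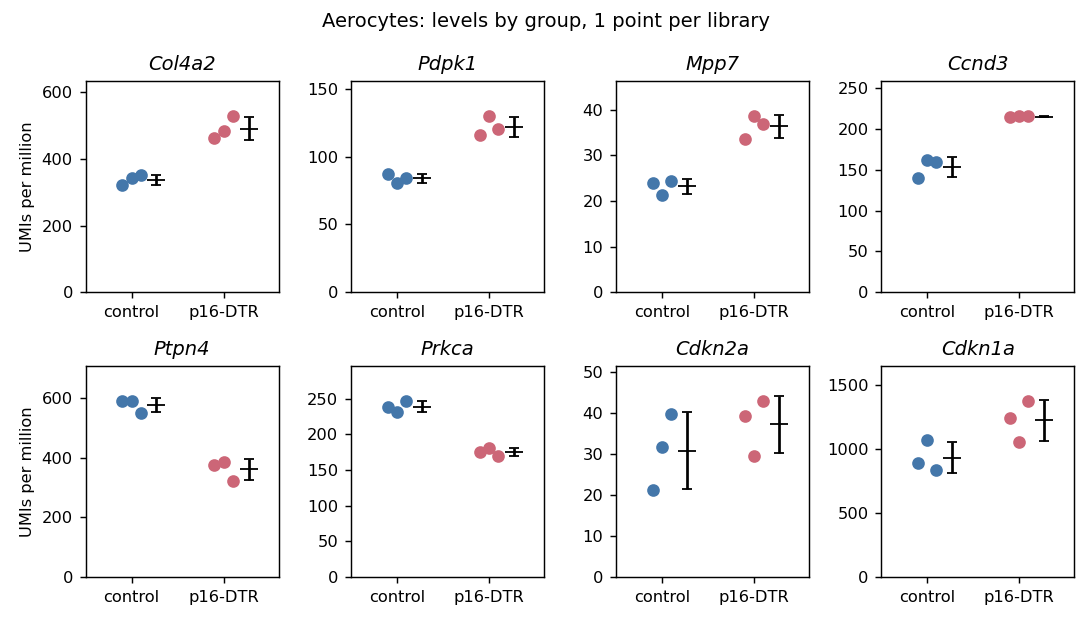
CPM in aerocytes for the 6 named genes that passed and for Cdkn2a and Cdkn1a, 1 point per library, with the mean and SD in black and the axis from 0. Col4a2, Pdpk1, Mpp7 and Ccnd3 were higher and Ptpn4 and Prkca lower in p16-DTR, without overlap, as the naming rule required. The groups overlapped for Cdkn2a and Cdkn1a.

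Among the gene lists, 1 of 19 basement membrane genes (Col4a2) and 1 of 11 tested cell cycle genes (Ccnd3) passed, against 0.0637% of all genes, and 0 members of the other lists did by edgeR. At an unadjusted p under 0.05, which 15.2% of all genes met, heat shock genes had 10 of 16 members, all with higher values in p16-DTR and a list median of 0.40 on the log2 scale, against -0.0034 over all genes. Hsp90ab1, a cytosolic chaperone, was at 1259, 1805 and 1369 against 1054, 1086 and 1036 CPM (adjusted p = 0.11). Targets of p53 had 12 of 19, 10 with higher values (median 0.22), with the proapoptotic Bbc3 at 35.1 ± 2.46 against 27.2 ± 1.65 CPM (SD, n = 3, adjusted p = 0.091) and Plk2 at 354 ± 14.7 against 465 ± 33.2 (adjusted p = 0.075). MHC class I genes had 8 of 15 with higher values (median 0.185), B2m being at 3084 ± 356 against 2477 ± 62.1 (adjusted p = 0.11). Interferon response genes had 7 of 23 with higher values (median 0.28), Ifitm3 being at 358 ± 17.3 against 277 ± 22.3 (adjusted p = 0.066). Other lists had such members too. Glucocorticoid-induced genes had 6 of 17 higher and 1 lower, circadian clock genes 5 of 16 higher and 2 lower. The BCL2 family had 5 of 14 higher and 1 lower, the senescence secretome 8 of 24 higher and 1 lower. Caveolae and junction genes had 5 of 19 higher and 2 lower.
Immediate early genes, which respond to handling as well as to growth signals, had 9 of 20 members at an unadjusted p under 0.05, all with lower values (median -0.21). Egr3 was at 13.8, 16.7 and 13.2 against 28.7, 18.6 and 31.8 CPM (adjusted p = 0.12). Cold-inducible and splicing genes had 5 of 11 with lower values, Cirbp being at 39.7 ± 9.97 against 64.2 ± 5.27 (SD, n = 3, adjusted p = 0.11). All 4 tested Serpina3 genes, acute-phase protease inhibitors with similar sequences between which reads may be split, had higher values at an unadjusted p under 0.05, and Serpina3m was at 9.14, 10.5 and 14.7 against 4.26, 3.85 and 5.05 CPM (adjusted p = 0.052). Of 16 aerocyte genes 2 had higher and 1 lower values at that level, and Igfbp7 was at 4423 ± 73.1 against 4007 ± 115 CPM (adjusted p = 0.11). Fibin (adjusted p = 0.93), Tbx2 (adjusted p = 1.00) and Apln (adjusted p = 0.72) did not pass.
General capillary markers had higher values for 5 of 5 genes (median 0.15), with Plvap at 114 ± 13.1 against 78.6 ± 13.7 CPM (SD, n = 3, adjusted p = 0.11), and aerocytes with a Kit or Aplnr UMI were 19.3 ± 0.747% in p16-DTR and 17.1 ± 2.08% in control (exact permutation p = 0.1). Arterial markers had higher values for 6 of 7 genes (median 0.23), 2 of them at an unadjusted p under 0.05, with the ephrin gene Efnb2 at 379 ± 10.9 against 316 ± 8.43 CPM (adjusted p = 0.066) and Sox17 at 44.3 ± 11.3 against 33.1 ± 2.25 (adjusted p = 0.23). Aerocytes with 10 or more UMIs of the arterial list were 38.5 ± 2.56% in p16-DTR and 31.2 ± 3.09% in control (SD, n = 3, exact permutation p = 0.1), and this list is not among those used to leave out barcodes. The whole arterial list stood at 492, 525 and 588 CPM in p16-DTR and 487, 445 and 449 in control. Efnb2 made up the larger part of it in every library. The part of general capillary and arterial RNA in these list values was not tested.

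The group difference was then compared between the capillary classes, in 1 fit over both. Of 14129 genes 21 passed (0.149%), 13 with a higher and 8 with a lower difference in aerocytes, and Cdkn2a and Arhgef7 shared the smallest adjusted p. With DESeq2-type (RLE) size factors 14 passed, 6 with a higher and 8 with a lower difference. None of the 8 genes called between the groups in aerocytes was among the 21. Cdkn2a stood at 0.265 ± 0.127 CPM in control and 3.55 ± 0.305 in p16-DTR general capillary cells (SD, n = 3), and at 30.8 ± 9.33 and 37.2 ± 6.97 in aerocytes. The group difference in aerocytes less that in general capillary cells was -3.50 ± 0.35 on the log2 scale (SE, edgeR adjusted p = 0.013). This ratio rests on a control level near 0 in general capillary cells, and neutrophils of the same libraries had a like rise in share, given above. In CPM the difference between the group means was not smaller in aerocytes. There, however, the groups overlapped and the difference did not pass (edgeR adjusted p = 0.59). Control replicate 1 was lowest at 21.0 CPM, against 31.6 and 39.6 in the other control libraries. Klf10, a transcription factor induced by TGF-beta, was at 72.8 ± 14.1 in p16-DTR against 30.9 ± 0.187 CPM in control general capillary cells and was at 79.4 ± 9.89 against 66.9 ± 3.11 in aerocytes (interaction -0.94, adjusted p = 0.023). Arhgef7, an exchange factor for small GTPases, was at 202 ± 13.5 against 207 ± 14.6 CPM in aerocytes and at 179 ± 20.2 against 271 ± 22.7 in general capillary cells (interaction 0.60, adjusted p = 0.013). For Ppp1r15a, a stress gene of the eIF2-alpha pathway, the aerocyte values were 159 ± 16.6 against 184 ± 14.9 and the general capillary values 176 ± 13.7 against 285 ± 24.7 (interaction 0.52, adjusted p = 0.043). Aff3 (-0.44, adjusted p = 0.038) and Atp6v0a4, a subunit of the vacuolar proton pump (1.41, adjusted p = 0.033), also passed.
For other genes among the 21 the group means lay further apart in aerocytes, and these are named after their values were seen. Sorbs2 was at 65.7 ± 16.3 against 30.7 ± 4.19 CPM in aerocytes and 12.7 ± 2.89 against 15.9 ± 3.06 in general capillary cells. Slc12a2, a sodium, potassium and chloride cotransporter, was at 116 ± 27.9 against 69.7 ± 6.42 in aerocytes and 19.2 ± 1.73 against 21.3 ± 1.45 in general capillary cells, and Spry4, a feedback inhibitor of receptor tyrosine kinases, at 39.3 ± 12.5 against 21.2 ± 1.12 and 94.8 ± 21.99 against 89.3 ± 7.82. The count fell to 0 without control replicate 3 (1149 genes at an unadjusted p under 0.05) and without p16-DTR replicate 1 (1143), and stood between 3 and 12 without the other libraries. With a stricter general capillary gate it was 8.

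The last comparison was within the class, between aerocytes with and without a Cdkn2a UMI. In each library every one of the detected cells (520 in all, of which 56 to 108 per library) was matched to 1 undetected cell of like depth. Median UMIs were 21083 to 23408 in detected and 21042.5 to 23384.5 in matched cells, and UMIs were summed per library and state and fitted with the library as a block. Cdkn2a, which defined the states, stood at 153, 157 and 210.5 CPM in detected control cells and 155, 152 and 213 in detected p16-DTR cells. An undetected cell may still express Cdkn2a below detection.

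Of 9925 genes 83 passed (0.836%), 20 higher (0.202%) and 63 lower (0.635%) in detected cells. Every one of the 63 lower genes had a higher level in general capillary cells than in aerocytes, 62 of them by at least 2-fold, and all 20 higher genes had a higher level in aerocytes, 16 of them by at least 2-fold. Over all genes tested, 6.32% were at least 2-fold higher in general capillary cells and 7.0% at least 2-fold higher in aerocytes. The levels in aerocytes come from the same cells, so this is a description of the called genes and no further test. The size of these differences depended on the undetected cells chosen. With 3 matched cells per detected cell all 83 kept their sign, but 60 were smaller by over 1.5 times, the median being 0.586 of the log2 difference with 1 matched cell, and 6 were called. Against all undetected cells 29 were smaller by over 1.5 times and 11 were called.

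**Figure D4:**
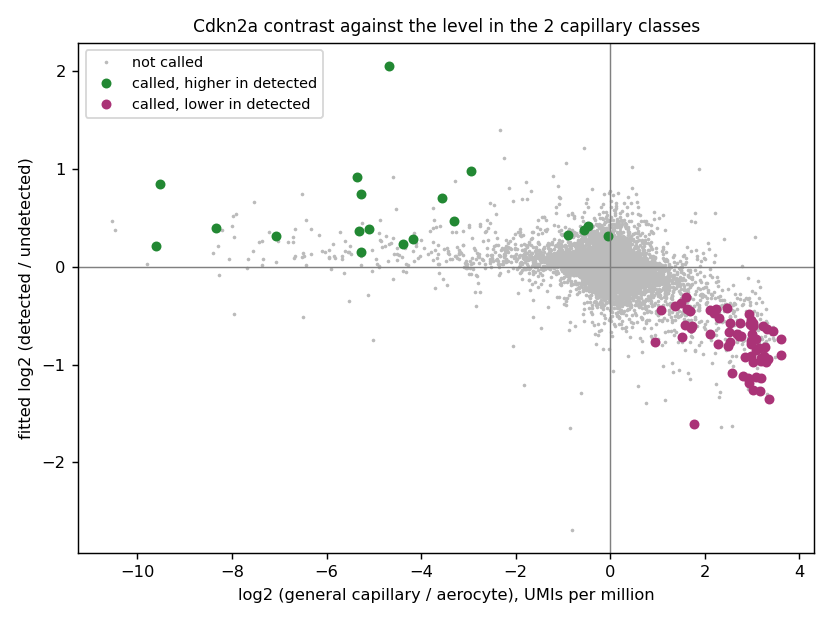
Fitted log2 difference between Cdkn2a-detected and undetected aerocytes (y) against the log2 ratio of general capillary to aerocyte level (x) for the 9925 genes tested, less Gm12606 (4.96 on the y axis). The 63 genes called lower lie right of 0 and the genes called higher lie left of 0.

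The neighbours of Cdkn2a on chromosome 4 were higher in detected cells. Gm12606 is the lincRNA on the same strand that begins 1067 bases past the end of Cdkn2a. It was at 9.45, 12.1 and 13 CPM in detected control cells and 14.5, 18.0 and 22.5 in detected p16-DTR cells, against 0 to 1.37 in matched cells. The log2 difference was 4.96 ± 0.42 (edgeR adjusted p = 2.1e-05). With matched values near 0, Gm12606 entered the test through the detected cells alone, and the size of its difference is not well determined. Whether the Gm12606 UMIs are its own transcripts or RNA that runs past the end of Cdkn2a was not tested. Cdkn2b was at 181, 147 and 175 CPM in detected control cells against 139, 104 and 129 in matched ones. In p16-DTR it was at 122, 139 and 107 against 101, 103 and 94.3. It was higher in detected cells of 6 of 6 libraries, with a log2 difference of 0.38 ± 0.07 (adjusted p = 0.0093). With 3 matched cells it was 0.40 (adjusted p = 0.014), and in control libraries alone 0.45 (adjusted p = 0.0097). It did not pass in p16-DTR libraries alone (0.31, adjusted p = 0.45) or without cells with Kit or Aplnr (0.26, adjusted p = 0.52). Nor did it without barcodes that held other markers (0.27, adjusted p = 0.56). The promoter windows of Cdkn2a and Cdkn2b are printed above.

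Other genes of growth arrest and stress were mixed. Gdf15, a target of p53, was higher in detected cells of 6 of 6 libraries, at 73.0, 69.2 and 115 CPM against 49.8, 55.6 and 26.9 in control and 139, 120 and 300.0 against 97.6, 83.4 and 104 in p16-DTR (log2 difference 0.92 ± 0.17, adjusted p = 0.015). It did not pass with 3 matched cells (0.84, adjusted p = 0.20) or against all undetected cells (0.66, adjusted p = 0.33). The survival gene Bcl2 was at 116 ± 18.4 against 86.0 ± 22.5 CPM (SD, n = 6, log2 difference 0.42 ± 0.09, adjusted p = 0.038), but at 0.27 with 3 matched cells (adjusted p = 0.27) and 0.21 without barcodes that held other markers (adjusted p = 0.93). Cdkn1a was at 1198 ± 261 against 1052 ± 218 CPM and did not pass (log2 difference 0.20 ± 0.06, adjusted p = 0.23), and Trp53 was at 66.3 ± 5.57 against 63.7 ± 8.21 (adjusted p = 0.91). Over all genes, 0.836% passed in this contrast. Of 19 tested p53 targets 1 passed (Gdf15), and the list median was 0.19, against 0.0023 over all genes. At an unadjusted p under 0.05, which 9.3% of all genes met, 8 of the 19 had higher and 0 lower values. Of 16 tested genes of the senescence secretome 3 passed, Gdf15 and Igfbp7 higher and Vegfa lower, and the list median was 0.0018. Of 5 tested INK4 and CIP/KIP inhibitors 1 passed (Cdkn2b), of 12 tested BCL2 family genes 1 (Bcl2), and of 7 tested cell cycle genes 0 by edgeR, with 1 at an unadjusted p under 0.05.

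Largest among the other genes that rose was Ccdc170, which was at 9.45, 8.99 and 16.3 CPM against 2.58, 3.52 and 6.11 in control and 14.5, 33.7 and 20.5 against 2.71, 5.19 and 3.42 in p16-DTR (log2 difference 2.05 ± 0.24, adjusted p = 0.00049). Its log2 difference was 1.06 with 3 matched cells, 1.10 against all undetected cells and 1.19 without barcodes that held other markers (adjusted p = 0.032, 0.018 and 0.10). With 1 matched cell, most matched sums of Ccdc170 lay under the filter on low counts. It thus entered the test through the detected cells, and the size of its difference is not well determined. Also higher were the dermatan sulfate epimerase Dse (0.98), Tmem117 (0.74) and Abca14 (0.70). Dse was at 2.73 CPM in matched cells of p16-DTR replicate 3 and also needed the detected cells to meet the filter. The growth factor receptor Fgfr1 (0.47), Gpnmb (0.40) and the calcium channel subunit Cacna1c (0.36) were higher too. Each was higher in 6 of 6 libraries, as the naming rule required, with adjusted p from 0.0086 to 0.040. With 3 matched cells none of them passed (adjusted p from 0.077 to 0.23). Of 16 aerocyte genes 2 were called higher, against 0.202% of all genes: Fibin at 919 ± 78.9 against 797 ± 108 CPM (log2 difference 0.21 ± 0.04, adjusted p = 0.025) and Igfbp7 at 4412 ± 255 against 3980 ± 187 (0.15 ± 0.03, adjusted p = 0.029). With 3 matched cells Fibin was at 0.19 and Igfbp7 at 0.062 (adjusted p = 0.16 and 0.77), and without barcodes that held other markers at 0.085 and 0.023 (0.94 and 0.98). The list had 15 of 16 members above 0 and a median of 0.13, against a median of 0.0023 over all genes. Tbx2 was at 553 ± 35.9 against 494 ± 36.0 CPM (adjusted p = 0.12) and Apln at 326 ± 29.5 against 294 ± 43.9 (adjusted p = 0.34). Car4, which was used by the gate, was at 2882 ± 81.7 against 2744 ± 70.1.

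**Figure D5:**
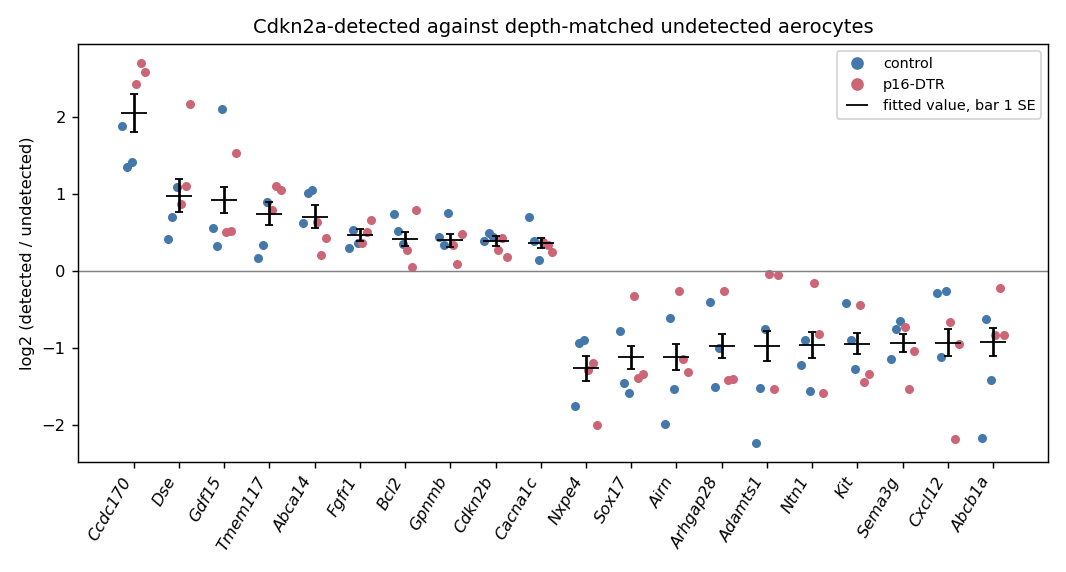
Log2 ratio of detected to matched undetected aerocytes, 1 point per library (control blue, p16-DTR red), with the fitted value and 1 SE in black. The genes are the 10 with the largest called difference in each direction among those with a mean of at least 10 CPM. Predicted genes, Gm12606 among them, and genes without 1 sign in all 6 libraries were left out. All points of the first 10 genes lie above 0 and all points of the other 10 below it, as the naming rule required.

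Genes of general capillary, arterial and antigen presentation lists were among those that fell. Kit, the stem cell factor receptor of general capillary cells, was at 30.9, 34.8 and 17.9 CPM in detected control cells against 41.2, 64.6 and 43.2. In p16-DTR it was at 66.6, 23.6 and 21.8 against 90.6, 64.3 and 55.3 (log2 difference -0.94 ± 0.13, adjusted p = 0.0016). With 3 matched cells the differences were -0.53 for Kit (adjusted p = 0.39), -0.42 for Gpihbp1 (0.39), -0.65 for Sox17 (0.29), -0.22 for Vegfa (0.89) and -0.17 for Edn1 (0.94), none of which passed. Gpihbp1, which anchors lipoprotein lipase, was at 94.0 ± 35.1 against 154 ± 40.5 CPM (SD, n = 6, log2 difference -0.71 ± 0.10, adjusted p = 0.0022), and Lpl was lower too (-1.18 ± 0.25, adjusted p = 0.031). Lpl was lower in 5 of 6 libraries and did not pass with 3 matched cells (-0.69, edgeR adjusted p = 0.51). Of 5 tested arterial markers 2 were called lower, against 0.635% of all genes: Sox17 at 24.2 ± 10.6 against 50.3 ± 6.05 CPM (adjusted p = 0.0012) and the chemokine gene Cxcl12 at 56.0 ± 18.8 against 103 ± 26.3 (adjusted p = 0.014). Cxcl12 did not pass with 3 matched cells either (-0.55, edgeR adjusted p = 0.32). Nxpe4 (-1.26), Airn (-1.12), Arhgap28 (-0.98) and the metalloproteinase Adamts1 (-0.97) were lower. So were the guidance genes Ntn1 (-0.96) and Sema3g (-0.94), and the drug efflux pump Abcb1a (-0.92). Each was lower in 6 of 6 libraries, as the naming rule required, with adjusted p from 0.00090 to 0.025. With 3 matched cells none of them passed (adjusted p from 0.077 to 0.74).
Over all genes, 0.635% were called lower. MHC class II genes had 3 of 7 tested members lower: Cd74 at 130 ± 52.9 against 190 ± 64.0 CPM (adjusted p = 0.016), H2-Ab1 at 49.7 ± 17.8 against 72.6 ± 23.7 (adjusted p = 0.014) and H2-Aa at 53.5 ± 18.6 against 74.7 ± 20.1 (adjusted p = 0.034). These calls were lost with 3 matched cells, where the log2 differences were -0.08, -0.15 and -0.09 (adjusted p = 0.96, 0.89 and 0.96). Without cells with Kit or Aplnr, H2-Ab1 turned to 0.09 and H2-Aa to 0.12, and Cd74 was at -0.26. Of 21 tested VEGF, apelin, Notch and TIE genes 2 were lower, Vegfa (-0.64, adjusted p = 0.018) and the angiopoietin receptor Tek (-0.48, adjusted p = 0.048). The capillary function list had 2 of 17 lower, Edn1 and Lpl. Ifitm3 of the interferon list (-0.47, adjusted p = 0.0015, 1 of 22 tested), Jam2 of the junction list (-0.68, adjusted p = 0.021, 1 of 19) and Errfi1 of the glucocorticoid list (-0.44, adjusted p = 0.032, 1 of 13) were lower as well. With 3 matched cells Tek (-0.21), Ifitm3 (-0.27), Jam2 (-0.60) and Errfi1 (-0.34) did not pass (edgeR adjusted p = 0.84, 0.24, 0.15 and 0.25). Ifitm3 was at -0.12 without cells with Kit or Aplnr (adjusted p = 0.96) and -0.037 without barcodes that held other markers (adjusted p = 0.99). Of the 22 interferon genes 10 had lower values at an unadjusted p under 0.05, which 9.3% of all genes met. The heat shock, immediate early, MHC class I, NF-kappaB, BMP and TGF-beta, and basement membrane lists had 0 members that passed by edgeR. At an unadjusted p under 0.05 they had, in this order, 1 of 16, 1 of 20, 3 of 15, 4 of 14, 3 of 20 and 3 of 11 tested members.

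Markers of general capillary cells were compared between the states. Cells with a Kit or Aplnr UMI were 16.1, 19.4 and 9.35% of detected against 18.5, 18.0 and 15.8% of undetected control aerocytes, and 23.8, 14.3 and 15.6% against 17.2, 20.3 and 21.2% in p16-DTR. The share was lower in detected cells of 4 of 6 libraries. These shares are over all undetected cells, whereas the Kit levels above are over the matched ones. Without the cells that held Kit or Aplnr, 6 of 9292 genes passed: Gm12606, Ccdc170, Gdf15, Chst9 and Ddah1 higher and Nxn lower. Without barcodes that held 10 or more UMIs of other markers, an alternative added after the data were seen, 6 of 8742 genes passed (0.0686%), and 3 of these were among the 83: Gdf15 (log2 difference 0.90, adjusted p = 0.011), Cacna1c (0.38, adjusted p = 0.018) and Ddah1 (0.57, adjusted p = 0.00069). This step removes cells by Kit, Gpihbp1, Sema3c and like genes, so it is no independent check of those genes. Kit was not tested in this fit, and Gpihbp1 was at -0.016 (adjusted p = 0.99). Cdkn2b kept its sign there at 0.27 (adjusted p = 0.56). Of the 55 called genes that could be tested 40 were smaller by over 1.5 times or turned, the median being 0.397 of the log2 difference with all cells, against 34 of 69 and 0.679 without cells that held Kit or Aplnr. Of the 55, 10 changed sign, among them Gpnmb (-0.11), H2-Ab1 (0.17) and H2-Aa (0.15).
The number of calls also moved with the libraries and the matching. It was 139 in the control libraries alone and 17 in the p16-DTR libraries alone, 21 without control replicate 2, 38 without control replicate 3, and 47 and 48 without p16-DTR replicates 3 and 2. It was 13 with 3 matched cells for each detected cell, 26 against all undetected cells, and 72 when at least 2 Cdkn2a UMIs were required.

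Finally, the difference between detected and undetected cells was compared between the groups. Of 10471 genes 37 passed (0.353%), 36 with a higher difference in p16-DTR. The leading ones were lymphatic genes. Ccl21a had 10, 7 and 6 UMIs in detected and 828, 162 and 1301 in matched control cells, and 7, 598 and 5 against 9, 388 and 4 in p16-DTR (interaction 7.14 ± 0.34, log2, SE, adjusted p = 3.1e-09). Mmrn1 (8.55 ± 0.43) and Reln (9.02 ± 0.61) followed the same libraries, with 211 and 119 UMIs in detected cells of p16-DTR replicate 2 and 0 to 3 in those of every other library. Aerocytes with 10 or more lymphatic UMIs were 3.81% of detected cells in p16-DTR replicate 2 and 0% in the other 5 libraries. Fgl2, Cp and Igfbp5 also passed, as did the platelet genes Ppbp and Pf4, named after their values were seen. Without p16-DTR replicate 2 the count was 8. Without barcodes that held other markers it was 0 by edgeR, with 393 of 9235 genes at an unadjusted p under 0.05.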

How the data were processed

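The authors deposited 1 matrix of whole-number UMI counts for each library, unnormalised. The submitters' processing notes name Cell Ranger 8.0.1 and the build mm10. Of 31054 features in each matrix, 1 is a tdTomato entry. Positions come from GENCODE M21 and promoter sequences from RefSeq (both GRCm38). Class sums per library, divided by their total, gave CPM.

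Counts summed per library were tested with the edgeR 4.0.16 quasi-likelihood test (R 4.3.3, filterByExpr, TMM factors, Benjamini-Hochberg adjustment over all genes tested), leaving out the genes of the gates. Genes were called at an adjusted p under 0.05. The Cdkn2a contrast was paired by library, and each detected cell was matched to the undetected cell nearest in UMIs. Standard errors were derived from the test statistic. Shares were compared with exact permutation tests after multivariate hypergeometric thinning (Python 3.11.15, scipy 1.17.1). DESeq2 1.42.0 was an alternative.

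The members and gene lists were chosen with earlier results of these data known. Named genes were up to 10 called genes per direction by fold change, with a mean of at least 10 CPM and groups that did not overlap (in the Cdkn2a contrast, 1 sign in all 6 libraries), leaving out predicted genes. Each list added up to 4 called genes, or up to 2 by unadjusted p as values, each interaction up to 6, and the class levels up to 12 per direction. A set of cell cycle, locus and marker genes was always included. The values of 1 gene are not reported here.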

Additional observations from a re-analysis of the deposited data

Results flagged for a closer look

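The group difference differed between aerocytes and general capillary cells for 21 genes by the interaction term of the edgeR fit. The 6 with the smallest adjusted p were Cdkn2a (-3.5, group difference in aerocytes less that in general capillary cells, log2), Arhgef7 (0.6), Klf10 (-0.94), Atp6v0a4 (1.41), Aff3 (-0.44) and Ppp1r15a (0.52). The difference between Cdkn2a-detected and undetected aerocytes differed between p16-DTR and control for 37 genes, led by Ccl21a (7.14), Mmrn1 (8.55), Reln (9.02), Fgl2 (7.57), Cp (4.58) and Igfbp5 (5.92), and for 0 genes by edgeR (393 at an unadjusted p under 0.05) without barcodes that held other markers.

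A tdTomato entry in the deposited features, used in no comparison, had 9 UMIs in p16-DTR aerocytes (1, 6 and 2 per library) and 0 in each control library. Aerocyte UMIs were 8456396, 12716510 and 13065870 in control and 7330200, 12894343 and 7283051 in p16-DTR libraries. The origin of these UMIs was not tested.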

How the results depend on the processing

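The count of genes that differed between the groups (8) was 286 by DESeq2, 349 without a filter on low counts, 37 with Car4 and Ednrb at 3 or more UMIs, 30 without cells with Kit or Aplnr, 29 without cells with a Cdkn2a UMI and 99 without barcodes with other markers, and 0 to 38 when 1 library was left out. With the replicate number as a block it was 0 (1575 genes at an unadjusted p under 0.05). Deviations from the group mean correlated at -0.149, -0.306 and -0.129 for same-numbered libraries and at -0.0735 to 0.203 for the other pairs. Deviations of 3 libraries sum to 0 within a group, so these values cannot tell whether same-numbered libraries share a batch. The count for the capillary classes (21) was 366 without the filter, 8 with the stricter gate and 0 to 12 with 1 library left out. The count for Cdkn2a-detected cells (83) was 26 without a depth match, 13 with 3 nearest cells, 52 by DESeq2, 349 without the filter, 139 in control and 17 in p16-DTR libraries alone, 6 without cells with Kit or Aplnr, 6 without barcodes with other markers, 1 without the library block and 21 to 118 with 1 library left out. Its difference between groups (37) was 0 without barcodes with other markers and 8 to 58 with 1 library left out. The difference in Cdkn2a share (1.08 points) was 3.48 without thinning, 2.04 at 10000 UMIs and 0.489 to 0.948 under the other settings. With 1 library left out it ran from -0.0388, without control replicate 1, to 1.86. Among called genes of the Cdkn2a contrast, 10 changed sign without barcodes with other markers, among them Gpnmb (-0.11), H2-Ab1 (0.17), H2-Aa (0.15), Cadps2 (0.26), Rnf144a (0.073), Tmem2 (0.066), Prex2 (0.061), Acer2 (0.023) and Ahnak (0.017). Without cells with Kit or Aplnr, H2-Aa (0.12), H2-Ab1 (0.086) and Rnf144a (0.059) did. All 8 genes called between the groups kept their sign under every alternative run. For these changes the cause was not tested. The difference in aerocyte share kept its sign, at -4.84 to -2.14 points with 1 library left out.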
